A study of Mus musculus with 6 samples.

Results

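Thyroid hormone signalling was followed through 8 genes, taken by name from the deposited count table of 56691 gene rows. They are the nuclear receptors Thra and Thrb, the deiodinases Dio2 and Dio3, the transporter Slc16a10, and Klf9, Hr and Thrsp, which are known to respond to the hormone. These names were chosen with their counts in these libraries already known, so their differences between the groups are given as a description with no test. RNA was sequenced from primary cardiomyocytes of neonatal mouse hearts that received a serotype 5 adenovirus with HMGB2 under the cTNT (cardiac troponin T) promoter (Ad-cTNT-HMGB2, 3 libraries) or the same virus without it (Ad-cTNT vector, 3 libraries). HMGB2 is a chromatin protein of the high mobility group, and the comparison asks which transcripts differ when cardiomyocytes carry more of it. All libraries thus carry a virus with a promoter active in cardiomyocytes. The sources used here do not give the age of the animals, the dose of virus, when cells were collected or whether the medium held thyroid hormone.

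Thyroid hormone enters cells through membrane transporters. The prohormone T4 is turned into the active T3 by outer-ring deiodination, which Dio2 carries out, while Dio3 inactivates both by inner-ring deiodination. T3 binds the receptors encoded by Thra and Thrb, which sit on DNA mostly with a retinoid X receptor, recruit corepressors without hormone and exchange them for coactivators when it binds. In rodent hearts the hormone is known for the change around birth to the adult myosin and for faster calcium uptake, and Thra is the main cardiac receptor gene. Thrsp, also called Spot14, is a hormone-responsive regulator of fatty acid synthesis in liver and fat.

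The libraries held 16618365, 14497676 and 16269222 counts for HMGB2 1, 2 and 3, and 12498215, 13911926 and 14101385 for vector 1, 2 and 3. On the second principal component of the 500 most variable genes (14.3% of their variance), HMGB2 3 and vector 1 stood apart from the other 4 libraries on the same side, and values that rest on them are also given without both. Transcripts of other heart cells were present in all libraries: 7 fibroblast markers summed to 4393 to 4487 CPM with HMGB2 against 4941 to 5015 CPM with the vector, and 6 endothelial markers to 2127 to 2174 CPM with HMGB2 against 2460 to 2494 CPM with the vector. Macrophage markers (7) summed to 63.8 to 76.0 CPM with HMGB2 against 85.1 to 117 CPM with the vector. Epicardial and mesothelial markers (5) summed to 125 to 134 CPM with HMGB2 against 154 to 176 CPM with the vector. Among these 5, Krt19 had 23.3 CPM with HMGB2 against 61.4 CPM with the vector. Sums of 6 smooth muscle and pericyte markers overlapped (1221 to 1295 CPM with HMGB2, 1203 to 1288 CPM with the vector). The 6 cardiomyocyte markers Tnnt2, Actc1, Tnni3, Myl2, Myl3 and Ttn summed to 14244 to 14782 CPM with HMGB2 against 7422 to 7969 CPM with the vector (CPM, counts relative to library size after TMM scaling). In bulk RNA, a smaller share of a cell type and less RNA per cell cannot be told apart, and this holds for all values below.

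Of the 8 genes, 7 passed the filter on low counts and Dio3 did not. By edgeR's quasi-likelihood test across 15429 genes with Benjamini-Hochberg adjustment, 25.2% of all tested genes were past an adjusted p of 0.05, 14.4% higher and 10.8% lower with HMGB2. No call is given for the 7 genes, since they were chosen on the same values. Groups were fully separated for 5 of the 7, with HMGB2 above for Thrsp, Slc16a10 and Thra and below for Hr and Klf9. Full separation held for 40.5% of all tested genes (21.6% with HMGB2 above and 18.9% with HMGB2 below). Nothing is read from the number separated either, and Thrsp passed the filter through the HMGB2 libraries alone.

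Upstream sequences are shown for Thrsp, Slc16a10 and Klf9, whose groups were separated, and for the receptor gene Thrb, to let the motifs be read in place. The promoter table from RefSeq (GRCm38.p6) held 6 of the 8 genes, with 7 entries, and Thra and Hr had none. The 250 bases before each start were searched on both strands for AGGTCA, the hexamer that thyroid hormone receptors bind, for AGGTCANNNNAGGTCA, the direct repeat with 4 bases between that they bind with a retinoid X receptor, and for CCAAT, the box bound by NF-Y. No entry of the 6 genes held the direct repeat in this window, as in all but 5 of 32851 entries, which says nothing of sites elsewhere. The AGGTCA hexamer was in 14.0% of all entries and, of these 6 genes, in Thrb. CCAAT was in 33.8% of all entries and in those of Thrsp, Slc16a10, Klf9 and Dio3. Capitals mark CCAAT, or ATTGG where it lies on the other strand, and in Thrb the hexamer. All are printed 5′ to 3′ on the strand of the gene. For Thrsp the stretches lie before the RefSeq start but inside the longer first exon of GENCODE M21, so only 10 bases on each side of the motif are shown. The Thrb window also overlaps annotated exons in part and is shown the same way.
Thrsp (chr7:97417615-97417639, minus strand): aaacgctgggATTGGctcaaaacag
Thrsp (chr7:97417588-97417612, minus strand): ctgtgttgctCCAATggttgggctt
Slc16a10 (chr10:40142259-40142504, minus strand): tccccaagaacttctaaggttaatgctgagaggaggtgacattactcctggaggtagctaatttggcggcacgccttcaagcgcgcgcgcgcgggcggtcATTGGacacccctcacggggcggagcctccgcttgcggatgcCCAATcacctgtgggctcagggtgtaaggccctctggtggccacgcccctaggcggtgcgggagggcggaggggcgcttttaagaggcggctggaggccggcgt
Klf9 (chr19:23140976-23141225, plus strand): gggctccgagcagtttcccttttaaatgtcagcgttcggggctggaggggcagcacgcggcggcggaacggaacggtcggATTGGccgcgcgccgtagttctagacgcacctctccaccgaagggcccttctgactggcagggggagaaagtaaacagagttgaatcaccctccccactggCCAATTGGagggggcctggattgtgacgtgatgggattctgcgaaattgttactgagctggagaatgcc
Thrb (chr14:17660766-17660791, plus strand): gagagttgacAGGTCAagggaatagg

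Thrsp (ENSMUSG00000035686, GRCm38 chromosome 7, 97412938 to 97417730, protein coding) had the highest fold of the 7 genes fitted. Its counts were 121, 82 and 94 in the HMGB2 libraries, against 5, 5 and 8 in the vector libraries. On the scale of library size these were 7.27, 5.66 and 5.70 CPM with HMGB2, against 0.401, 0.365 and 0.572 CPM with the vector. The lowest HMGB2 library thus lay 5.08 CPM above the highest vector library. The log2 fold change was 3.77 (SE 0.26). All vector libraries were under 10 counts, so the gene entered the fit through the HMGB2 libraries alone, and the vector level rests on 18 counts in all. With 1 library left out the log2 fold change was between 3.64 and 3.99, and it was 3.77 without vector 1 and HMGB2 3. On the scale of log2(FPKM + 1), which understates changes of low genes, it was 1.68.

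Thrsp is known as abundant in fat cells, and markers of these were read beside it. Plin1, which coats the lipid droplets of fat cells, and Lep, the hormone leptin, had 0 counts in all 6 libraries. Adipoq and Cidec did not pass the filter on low counts. Fabp4, which endothelial cells also express, had 150 ± 17.5 CPM with HMGB2 and 134 ± 20.3 CPM with the vector (SD, n = 3 each; edgeR adjusted p = 0.367). Of the 6 markers only 2 were tested, Fabp4 and Cidea. Cidea, a lipid droplet protein, was past the threshold, with 28.5 ± 3.97 CPM with HMGB2 against 14.2 ± 1.5 CPM with the vector (edgeR adjusted p = 0.000459). The 6 markers summed to 162 to 203 CPM with HMGB2 and 133 to 173 CPM with the vector, ranges that overlap. Fabp4 made up most of these sums, so their overlap says little of fat cells.

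**Figure D1:**
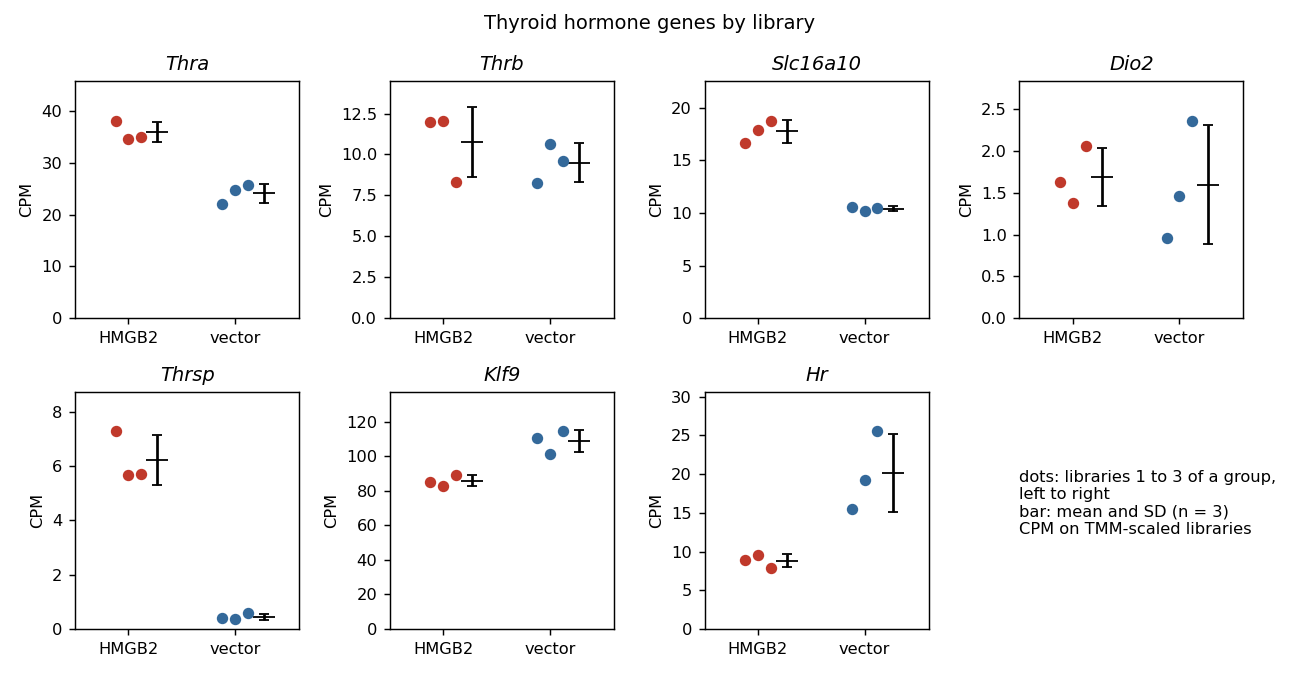
CPM of 7 genes in each of the 3 HMGB2 libraries (left, red) and 3 vector libraries (right, blue), with the mean and SD of each group and axes that start at 0. Groups do not overlap for Thra, Slc16a10, Thrsp, Klf9 and Hr, and they overlap for Thrb and Dio2.

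Among the receptors, Thra (ENSMUSG00000058756, GRCm38 chromosome 11, 98740638 to 98769006, protein coding) was higher with HMGB2 and Thrb overlapped between the groups. Thra had 38.2, 34.7 and 35.0 CPM in the HMGB2 libraries, against 22.1, 24.7 and 25.7 CPM in the vector libraries. All 3 HMGB2 libraries lay above all 3 vector libraries by at least 9.0 CPM, and the log2 fold change was 0.57 (SE 0.09), or 1.49-fold. With 1 library left out it was between 0.51 and 0.62. The last exons of Thra share 263 bases, 5.70% of its exon bases, with Nr1d1 on the other strand, the gene of the clock repressor REV-ERBα. Since the strand setting of the counting is not given, reads in this stretch cannot be told apart. Nr1d1 itself had 8.78 ± 0.389 CPM with HMGB2 and 9.10 ± 0.669 CPM with the vector (SD, n = 3 each), and its log2 fold change of -0.05 was not past the threshold (edgeR adjusted p = 0.791). The counts are per gene and do not separate the hormone-binding product of Thra from the splice form that binds no hormone.

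Thrb (ENSMUSG00000021779, GRCm38 chromosome 14, 17660261 to 18038090, protein coding) had 12, 12.1 and 8.30 CPM in the HMGB2 libraries, against 8.26, 10.7 and 9.59 CPM in the vector libraries. HMGB2 3 was the low library of its group, close to vector 1, and both stood apart on the second principal component. The log2 fold change was 0.18 (SE 0.17), 0.34 without HMGB2 3 and 0.25 without both libraries. Compared per length by the deposited FPKM (fragments scaled by transcript length and library size), Thra was 5.11, 4.61 and 6.75 times as high as Thrb in the HMGB2 libraries, against 4.32, 3.71 and 4.31 times in the vector libraries. Thra therefore made up 82.2% to 87.1% of the summed receptor FPKM with HMGB2 and 78.8% to 81.2% with the vector.

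Slc16a10 (ENSMUSG00000019838, GRCm38 chromosome 10, 40033532 to 40142258, protein coding), which carries aromatic amino acids and thyroid hormones, was higher with HMGB2. It had 16.7, 17.9 and 18.8 CPM in the HMGB2 libraries, against 10.6, 10.2 and 10.5 CPM in the vector libraries. The groups were separated by 6.07 CPM and the vector libraries lay close together. The log2 fold change was 0.77 (SE 0.10), or 1.71-fold, and lay between 0.73 and 0.82 with 1 library left out. On the scale of log2(FPKM + 1) it was 0.51.

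Both deiodinase genes were near the lower end of what these libraries can count. Dio2 (ENSMUSG00000007682, GRCm38 chromosome 12, 90724552 to 90738438, protein coding) had 27, 20 and 34 counts in the HMGB2 libraries, against 12, 20 and 33 counts in the vector libraries. As CPM these were 1.62, 1.38 and 2.06 with HMGB2, against 0.962, 1.46 and 2.36 with the vector, so the HMGB2 values fell inside the range of the vector values. The log2 fold change of 0.07 (SE 0.35) turned negative without HMGB2 3 (-0.09) or vector 1 (-0.17) and was 0.47 without vector 3. With these low counts and this spread between libraries, a difference in Dio2 was not detectable. Its exons share 100 bases with Gm26512 on the other strand, which did not pass the filter. Dio3 (ENSMUSG00000075707, GRCm38 chromosome 12, 110279068 to 110281097, protein coding) had 0, 2 and 1 counts in the HMGB2 libraries, against 0, 2 and 0 in the vector libraries. No fold is given, because no library exceeded the 3 counts that a count of 0 allows, which is between 0.180 and 0.241 CPM depending on the library. That limit covers counting error only.

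Klf9 and Hr, classical targets that T3 raises in brain and other tissues, were lower with HMGB2. Klf9 (ENSMUSG00000033863, GRCm38 chromosome 19, 23141226 to 23168134, protein coding) encodes a Krüppel-like transcription factor that glucocorticoids also induce. It had 85.1, 83.0 and 89.5 CPM in the HMGB2 libraries, against 110.6, 101.7 and 114.6 CPM in the vector libraries. The groups were separated by 12.2 CPM, and the log2 fold change was -0.34 (SE 0.07), between -0.39 and -0.31 with 1 library left out. Hr (ENSMUSG00000022096, GRCm38 chromosome 14, 70552212 to 70573548, protein coding), named hairless, encodes a nuclear corepressor that binds thyroid hormone receptors. It had 8.96, 9.52 and 7.88 CPM in the HMGB2 libraries, against 15.6, 19.3 and 25.5 CPM in the vector libraries. The vector libraries were spread wider than the HMGB2 libraries, with vector 3 highest, and the lowest vector library lay 6.04 CPM above the highest HMGB2 library. The log2 fold change was -1.20 (SE 0.18), or 2.30-fold lower, and was -0.99 without vector 3 and -1.35 without vector 1. Hr is also abundant in skin, and the 4 keratinocyte markers summed to 2.77 to 3.93 CPM with HMGB2 and 2.43 to 2.81 CPM with the vector, ranges that overlap, with Krt5 and Krt15 too low to be tested.

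**Figure D2:**
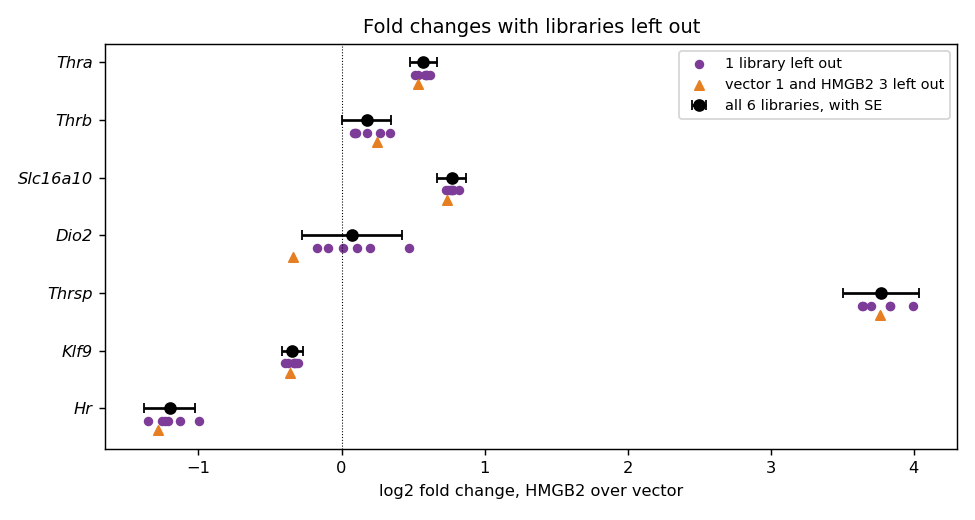
Log2 fold change of HMGB2 over vector for 7 genes with all 6 libraries (black, SE), with each library left out in turn (purple) and without vector 1 and HMGB2 3 (orange). Thrsp stays above 3.6, Thra and Slc16a10 stay above 0 and Klf9 and Hr below 0, while Dio2 lies on both sides of 0.

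Compared per length, Klf9 was the most abundant of the 8 transcripts in both groups, at 17.9 ± 0.820 FPKM with HMGB2 and 22.4 ± 1.47 FPKM with the vector (SD, n = 3 each). Thra followed with 7.83 ± 0.397 FPKM with HMGB2 and 5.19 ± 0.371 FPKM with the vector. With HMGB2 the next levels were those of Thrsp (2.85 ± 0.417 FPKM), Slc16a10 (2.43 ± 0.160), Thrb (1.46 ± 0.280) and Hr (1.28 ± 0.117). With the vector they were Hr (2.88 ± 0.720 FPKM), Slc16a10 (1.41 ± 0.0416), Thrb (1.27 ± 0.155), Dio2 (0.243 ± 0.107) and Thrsp (0.20 ± 0.0529). Thrsp and Slc16a10 overlapped among the HMGB2 libraries, as did Thrb and Hr. Among the vector libraries, Slc16a10 overlapped with Thrb and Dio2 with Thrsp.

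**Figure D3:**
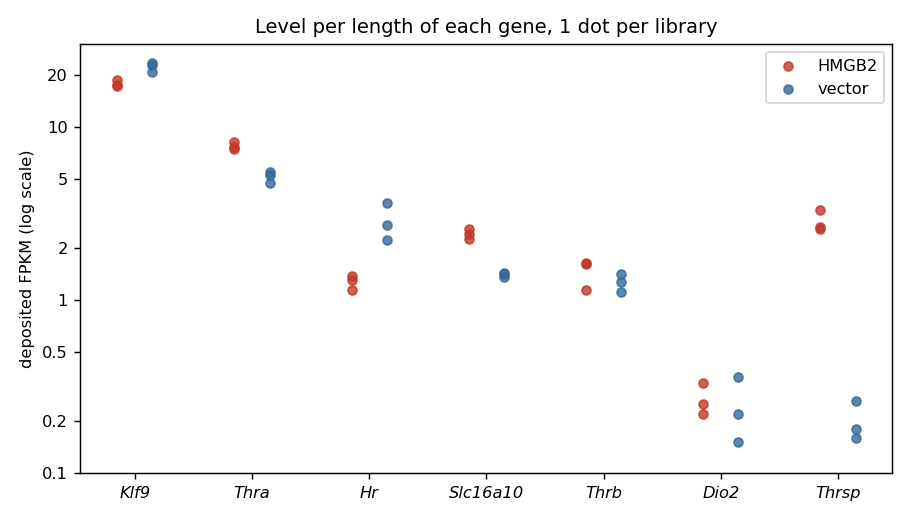
Deposited FPKM on a log axis for 7 genes, ordered by their mean in the vector libraries, with 1 dot per library and HMGB2 (red) left of vector (blue). Thrsp has the lowest vector mean of the 7, at 0.16 to 0.26 FPKM and overlapping with Dio2, and lies at 2.58 to 3.33 FPKM with HMGB2.

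The rest of the pathway was read from 8 lists of 70 other genes, of which 60 were tested. Of these 20 rose, 7 fell and 33 stayed below the threshold, while 14.4% of all tested genes were higher and 10.8% lower. The number that fell was thus near the share over all genes. Their median log2 fold change was 0.03, and that of all tested genes was -0.0022. The number that rose was between 18 and 21 with 1 library left out. The number that fell was 3 without HMGB2 1, 4 without HMGB2 2, vector 2 or vector 3, 5 without HMGB2 3 and 10 without vector 1. Without both vector 1 and HMGB2 3, 24 rose and 14 fell, beside 3265 higher and 2986 lower of all 15644 genes tested. Of the 20 that rose with all 6 libraries, 14 were in the lists of heart genes.

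Among hormone transport and binding genes other than Slc16a10, no rise passed the threshold. Of 7 tested, 2 fell and 5 did not pass, against 14.4% higher and 10.8% lower over all tested genes. The list's median log2 fold change was -0.28. The 2 that fell form the amino acid carrier LAT1 with its heavy chain, which also takes up thyroid hormones. Slc3a2, the heavy chain, had 122 ± 1.77 CPM with HMGB2 against 174 ± 16.2 CPM with the vector (log2 fold change -0.52, SE 0.08, edgeR adjusted p = 0.00148). Slc7a5, the light chain, had 80.8 ± 3.36 CPM with HMGB2 against 96.6 ± 1.51 CPM with the vector (log2 fold change -0.26, edgeR adjusted p = 0.0219), and it kept its call in 1 of 6 fits with a library left out (highest adjusted p 0.0937, without HMGB2 2). Slco1c1, chosen after its values were seen, had at most 17 counts in a library. It had 0.883 ± 0.155 CPM with HMGB2 against 0.296 ± 0.250 CPM with the vector. Its log2 fold change of 1.54 did not pass (edgeR adjusted p = 0.0629), and it passed the filter through the HMGB2 libraries. Without vector 1, 3 members fell, and without vector 2, 1 rose, Slco1c1.

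Within the monocarboxylate transporter family, to which Slc16a10 belongs, 3 of 9 other members rose and 0 fell, beside 14.4% and 10.8% of all tested genes, while 1 fell without vector 1. The lactate and pyruvate carrier Slc16a1 had 165 ± 9.15 CPM with HMGB2 against 93.8 ± 5.27 CPM with the vector (1.76-fold, edgeR adjusted p = 7.39e-05). Slc16a12 rose 1.70-fold (edgeR adjusted p = 0.00123) and the lactate exporter Slc16a3 1.24-fold (edgeR adjusted p = 0.0154). The call of Slc16a3 was lost in 3 of 6 fits with a library left out (highest adjusted p 0.0799, without HMGB2 2).

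Genes around the deiodinases were tested as far as they were counted, and Dio1 had 0 counts in all libraries. Of 7 tested, 1 rose and 2 fell, against 14.4% higher and 10.8% lower over all tested genes. Usp20, a deubiquitinase that can rescue DIO2 from degradation, had 62.2 ± 0.710 CPM with HMGB2 against 34.7 ± 1.24 CPM with the vector (log2 fold change 0.84, SE 0.07, edgeR adjusted p = 4.15e-05). The ubiquitin ligase genes Wsb1 and Marchf6, whose products mark DIO2 for degradation, had log2 fold changes of -0.25 and -0.24 (edgeR adjusted p = 0.0408 and 0.0410). Both calls were lost in 5 of 6 fits with a library left out (highest adjusted p 0.158 for Wsb1 and 0.15 for Marchf6, both without HMGB2 1).

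Of 19 receptor partners and cofactors, 3 were past the threshold, against 25.2% of all tested genes. Among the retinoid X receptors, Rxrg rose to 1.32 ± 0.333 CPM with HMGB2 against 0.483 ± 0.295 CPM with the vector (edgeR adjusted p = 0.0426), a call lost without HMGB2 1, HMGB2 2, vector 2 or vector 3 (highest adjusted p 0.162, without HMGB2 1). It had 28, 18 and 17 counts with HMGB2 against 10, 3 and 6 with the vector, so it passed the filter through the HMGB2 libraries and its call is not independent of that. The more abundant Rxra and Rxrb had log2 fold changes of -0.24 and -0.17 and did not pass (edgeR adjusted p = 0.0753 and 0.242). Of 7 corepressor genes, 1 fell and 6 did not pass. It was Gps2, a subunit of the NCoR and SMRT complex, with 15.9 ± 0.657 CPM with HMGB2 against 22.7 ± 1.62 CPM with the vector (log2 fold change -0.52, edgeR adjusted p = 0.00416). Ncor1 and Tbl1x, highest of the list by CPM, which is not scaled by length, had log2 fold changes of 0.20 and -0.12. Of 9 coactivator genes, 1 rose and 8 did not pass. The acetyltransferase gene Kat2b had 137 ± 5.94 CPM with HMGB2 against 94.8 ± 0.695 CPM with the vector (log2 fold change 0.53, edgeR adjusted p = 0.000456), and Ep300, highest of the others by CPM, had 116 ± 27.9 CPM with HMGB2 and 115.5 ± 33.3 CPM with the vector (edgeR adjusted p = 0.999). Without vector 1, a second corepressor gene, a coactivator gene and a retinoid X receptor gene fell. Without both vector 1 and HMGB2 3, 4 corepressor genes, 2 coactivator genes and 1 retinoid X receptor gene fell. In the same fit 1 corepressor gene, 2 coactivator genes and 1 retinoid X receptor gene rose. That fit called more genes in both directions, with 3265 higher and 2986 lower of 15644 tested (2224 and 1662 with all libraries).

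Heart genes known to respond to thyroid hormone were split into those it raises and those it lowers. Of 13 tested genes of the first kind, 8 rose, 0 fell and 5 did not pass, against 14.4% higher and 10.8% lower over all tested genes, with a median log2 fold change of 0.76. The insulin-responsive glucose transporter Slc2a4 had 46.5 ± 4.06 CPM with HMGB2 against 11.8 ± 0.451 CPM with the vector (log2 fold change 1.98, edgeR adjusted p = 2.08e-06). The beta-1 adrenergic receptor gene Adrb1 had 31.5 ± 0.952 CPM with HMGB2 against 12 ± 0.336 CPM with the vector (log2 fold change 1.39, edgeR adjusted p = 7.57e-06). Atp2a2, which pumps calcium into the sarcoplasmic reticulum, was also higher (log2 fold change 1.46, edgeR adjusted p = 1.6e-06), as was Myh6, the adult myosin heavy chain, chosen after its values were seen (0.77, edgeR adjusted p = 0.00136). These 4 genes kept their calls with each library left out. Values of Atp2a2 were known when the list was made, so its call and its place among the 8 are no independent evidence.

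Of 6 tested heart genes that the hormone is known to lower, 6 rose and 0 fell. Over all tested genes, 14.4% were higher and 10.8% lower. The list's median log2 fold change was 1.01, and 5 of its genes rose without HMGB2 1, HMGB2 2, vector 2 or vector 3. Myh7, the fetal myosin heavy chain, had 177 ± 13.1 CPM with HMGB2 against 116 ± 6.60 CPM with the vector (log2 fold change 0.61, SE 0.08, edgeR adjusted p = 0.000577). Pln, the inhibitor of the calcium pump, had 206 ± 12.4 CPM with HMGB2 against 76.0 ± 2.97 CPM with the vector (log2 fold change 1.44, edgeR adjusted p = 2.3e-06). Values of Pln were known when the list was made, so its call and its place among the 6 are no independent evidence. The adenylyl cyclase gene Adcy5 and the potassium channel subunit gene Kcne1 had log2 fold changes of 1.21 and 1.42 (edgeR adjusted p = 6.75e-05 and 0.000822). Over 59.0% of its transcript, Pln is 99.1% identical to Gm47644 in the opposite orientation, and stretches of Myh6 and Myh7 are over 97% identical, so their counts are uncertain by shared reads. Of the 6 cardiomyocyte markers, 5 rose with a median log2 fold change of 0.62, and the part of this in the heart gene lists was not tested.

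**Figure D4:**
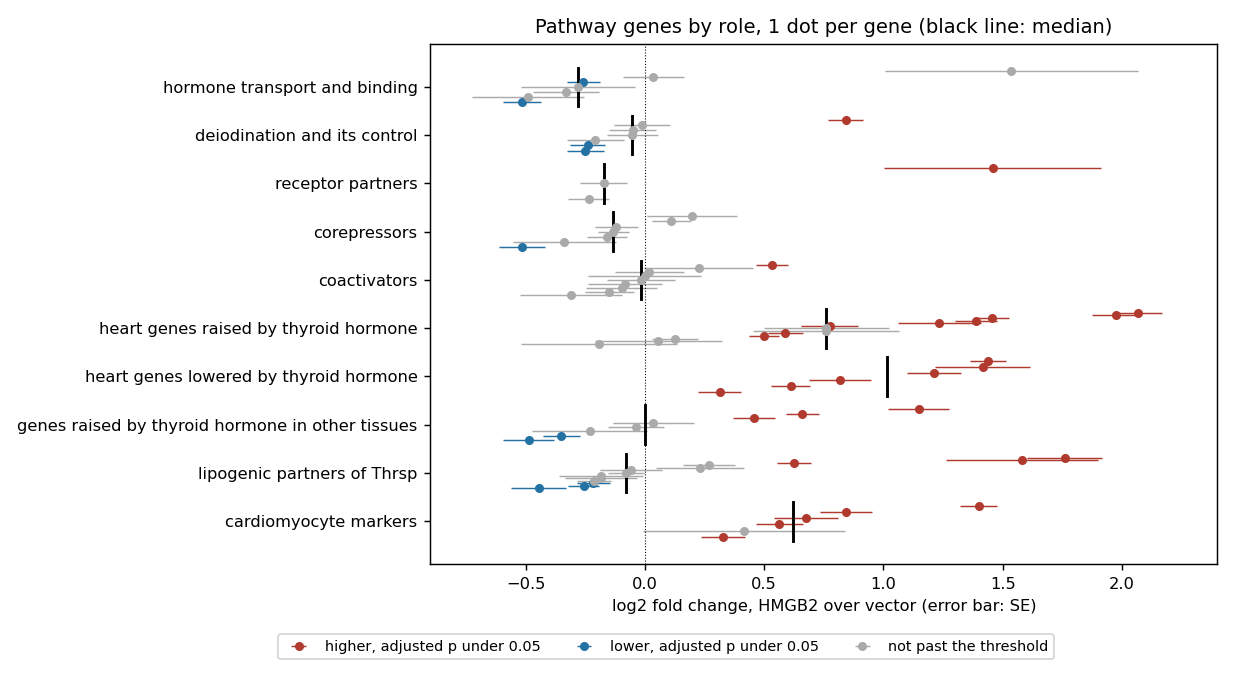
Log2 fold change of HMGB2 over vector with SE for each tested gene of the pathway lists, the lipogenic list and the cardiomyocyte markers. Red and blue mark genes past an adjusted p of 0.05 (edgeR) and the black line is the list's median, which is 0.76 for heart genes raised and 1.01 for heart genes lowered by thyroid hormone.

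Ratios within the 2 best known pairs set the opposite responses to the hormone against each other. They were added after the lists were made. By deposited FPKM, Myh7 over Myh6 was 0.0217 ± 0.00306 with HMGB2 and 0.0244 ± 0.00426 with the vector (SD, n = 3 each), and the groups overlapped (two-sided exact permutation p = 0.5, adjusted over the 2 ratios 0.8). Atp2a2 over Pln was 5.96 ± 0.534 with HMGB2 and 5.88 ± 0.387 with the vector, again overlapping (two-sided exact permutation p = 0.8, adjusted 0.8). With 3 against 3 libraries the smallest p possible is 0.1, so these tests cannot show that the ratios are alike.

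Genes that the hormone raises outside the heart moved in both directions, with 3 of 8 tested higher, 2 lower and a median log2 fold change of -9.93e-04. The shares over all tested genes were 14.4% higher and 10.8% lower. Ppargc1a, a coactivator of mitochondrial genes, had 30.2 ± 2.69 CPM with HMGB2 against 13.6 ± 2.06 CPM with the vector (log2 fold change 1.15, edgeR adjusted p = 0.000205). Rcan2, a calcineurin regulator, had 167 ± 2.75 CPM with HMGB2 against 106 ± 4.39 CPM with the vector (log2 fold change 0.66, edgeR adjusted p = 0.000122). The retinaldehyde dehydrogenase gene Aldh1a1 had a log2 fold change of 0.46 and Bcl3, a cofactor of NF-kappaB, of -0.49 (edgeR adjusted p = 0.00471 and 0.00893). The malic enzyme gene Me1, chosen after its values were seen, had a log2 fold change of -0.35 (edgeR adjusted p = 0.00977), a call lost without HMGB2 1 (adjusted p = 0.0594). Me1 is 98.5% identical over 49.8% of its transcript to Gm7049, so its counts are uncertain.

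Thrsp was set beside genes of fatty acid synthesis and their regulators. Of 13 lipogenic genes, 3 rose, 3 fell and 7 did not pass, against 14.4% higher and 10.8% lower over all tested genes. Their median log2 fold change was -0.08. Mid1ip1, the paralogue of Thrsp whose product activates acetyl-CoA carboxylase, had 82.7 ± 1.44 CPM with HMGB2 against 53.7 ± 2.71 CPM with the vector (log2 fold change 0.62, SE 0.07, edgeR adjusted p = 0.000248), and 450 bases of its transcript are identical to Gm14493 in the opposite orientation. Acacb, the carboxylase of the mitochondrial surface, had 73.8 ± 12.3 CPM with HMGB2 against 21.7 ± 3.84 CPM with the vector (log2 fold change 1.76, edgeR adjusted p = 5.2e-05). Mlxipl, the carbohydrate-responsive factor ChREBP, had 4.56 ± 0.962 CPM with HMGB2 against 1.5 ± 0.746 CPM with the vector (log2 fold change 1.58, edgeR adjusted p = 0.00604). The desaturase gene Scd2 fell, with a log2 fold change of -0.26 (edgeR adjusted p = 0.0187), as did Elovl6 (-0.45, 0.0211) and Acly (-0.22, 0.0453), both chosen after their values were seen. Of these falls 0 were called without HMGB2 2, HMGB2 3, vector 2 or vector 3 and 1 without HMGB2 1. Values of Scd2 were known when the list was made, so its call is no independent evidence. Without both vector 1 and HMGB2 3, 6 genes of the list fell and 4 rose, beside 2986 lower and 3265 higher of all 15644 tested. The fatty acid synthase gene Fasn, also chosen after its values were seen, had 349 ± 58.5 CPM with HMGB2 and 397 ± 70.5 CPM with the vector (edgeR adjusted p = 0.418).

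Klf9 was set beside its family and beside other genes that glucocorticoids induce. Of 13 other Krüppel-like factor genes tested, 2 rose, 3 fell and 8 did not pass, beside shares of 14.4% and 10.8% over all tested genes. Klf5, a factor of remodelling smooth muscle and heart, had 20.7 ± 0.793 CPM with HMGB2 against 37.1 ± 5.0 CPM with the vector (log2 fold change -0.84, edgeR adjusted p = 0.000534). Klf4 and Klf6 had log2 fold changes of -0.42 and -0.25 (edgeR adjusted p = 0.00928 and 0.0172), and their calls were lost in 1 and 3 of 6 fits with a library left out. Klf14 rose to 1.85 ± 0.129 CPM with HMGB2 against 0.387 ± 0.318 CPM with the vector (edgeR adjusted p = 0.00824). Klf14 passed the filter through the HMGB2 libraries, with 30, 29 and 29 counts against 1, 5 and 10 with the vector, so its call is not independent of that. The other that rose was Klf2, chosen after its values were seen (log2 fold change 0.36, edgeR adjusted p = 0.0422), whose call was lost in 5 of 6 fits with a library left out. The number that fell was 1 without HMGB2 1, and 2 without HMGB2 2 or vector 2.

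Of 8 glucocorticoid-induced genes, 4 rose and 1 fell, beside 14.4% and 10.8% of all tested genes. The receptor chaperone gene Fkbp5 had 125 ± 2.41 CPM with HMGB2 against 99.4 ± 1.46 CPM with the vector (log2 fold change 0.33, edgeR adjusted p = 0.00477). Sult1a1, a sulfotransferase gene, had a log2 fold change of 1.63 (edgeR adjusted p = 0.00249), the phosphatase gene Dusp1 of 0.39 (0.00777) and Tsc22d3, which encodes GILZ, of 0.48 (0.0111). Counts of Sult1a1 were low, at 52, 57 and 67 with HMGB2 against 9, 20 and 19 with the vector. Tsc22d3 lost its call without vector 2 (adjusted p = 0.0574). Sgk1, chosen after its values were seen, had a log2 fold change of -0.32 (edgeR adjusted p = 0.0169), a call lost in 3 of 6 fits with a library left out (highest adjusted p 0.0901, without HMGB2 2). The log2 fold changes of 6 of the 8 were above 0. Those of Sgk1 and Per1 (-0.18, not past the threshold, also chosen after its values were seen) were below it, as was that of Klf9. The median over all tested genes was -0.0022.

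The tested genes whose log2 CPM profile over the 6 libraries was closest to each member were found by the root mean square distance of centred profiles. For Thrsp they were P2rx1, Ky and Hcrtr2 (distances 0.126, 0.235 and 0.237). For Thra they were Slc43a3, Hpse and Chml (0.0385 to 0.0466), and for Slc16a10 they were Ankra2, Etfdh and Trdn (0.0258 to 0.0367). For Klf9 they were Dhx16, Ccdc102a and Snx18 (0.0292 to 0.0339), and for Hr Pkd1l3, Crybb3 and Bcor (0.104 to 0.129). For Thrb they were Sik2, C2cd3 and Synm (0.0464 to 0.0594), and for Dio2 Map9, R74862 and Reep6 (0.119 to 0.144). All share the 6 libraries and their depth, and with 2 groups a close profile mostly means a like difference between them.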

How the data were processed

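The deposited table of raw counts gives 1 whole number per Ensembl gene and library. These are counts that the authors left unnormalized, per the file headers. The authors also deposited FPKM, used here for levels per length and as an alternative. Per the submitters' processing notes, the tools were StringTie 1.3.3b, HTSeq 0.6.1, HISAT2 2.2.1 and FastQC 0.10.1 and the build mm10, with no roles given. TRIzol was used for total RNA and the VAHTS Universal V5 kit for libraries, per the labels' protocols. Short column names were matched to samples through group abbreviation and replicate number. Of 56691 gene identifiers, 52073 are in GENCODE M21 (GRCm38), the source of positions and exon overlaps. The positions in the tables were not used.

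The counts went into edgeR 4.0.16 under R 4.3.3 (filterByExpr with minimum count 10 and total 15, TMM, robust quasi-likelihood F-test, group as the only term, all 6 libraries), with Benjamini-Hochberg adjustment over 15429 genes and a threshold of 0.05. The SE divides the absolute log2 fold change by the root of F. Alternatives used DESeq2 1.42.0 and limma 3.58.1. Near-identical copies were sought at 97% identity over 300 bases. Depth was 12498215 to 16618365 counts per library. Whether replicates come from separate cultures or animals is not given in the labels. The p-values therefore reflect only how these samples vary, which may be technical.

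The members and lists were chosen with earlier results of these data known, among them values of Thrsp, Atp2a2, Pln and Scd2, so no list is independent evidence. From each list the text names up to 4 called genes, those of smallest p, and, where fewer than 2 were called, the 2 of highest mean CPM, and it names the 3 closest profiles for each member. Genes outside this rule are marked as chosen after their values were seen. Some genes that the rule names are not reported here.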

Additional observations from a re-analysis of the deposited data

How the results depend on the processing

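Under 15 alternatives (other scaling factors, other filters, DESeq2, limma on FPKM, a replicate block and libraries left out), the log2 fold changes of Thra, Thrb, Slc16a10, Thrsp, Klf9 and Hr kept their sign, and that of Dio2 did in 12. On log2(FPKM + 0.1) Thrsp was at 3.30. On log2(FPKM + 1), which compresses low values by construction, Thrsp was at 1.68, Hr at -0.75 and Slc16a10 at 0.51. With 1 library left out, 866 to 1960 genes were lower with HMGB2 (1662 with all) and 1567 to 2526 higher (2224 with all). The pathway genes that fell numbered 3 to 10 (7 with all). Without both vector 1 and HMGB2 3, 3265 genes were higher and 2986 lower, and 24 pathway genes rose and 14 fell. The cause of these shifts was not tested.

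Replicate numbers do not pair the samples: deviations from the group means correlated across 15429 genes by -0.318, 0.231 and -0.375 for numbers 1, 2 and 3, and HMGB2 3 correlated best with vector 1 (0.521). With the replicate block, 1459 genes were higher and 754 lower, 18 pathway genes rose and 3 fell, and the log2 fold changes of the members lay between -1.18 and 3.76. Depth limits Dio3 (at most 2 counts in a library), Dio2 (12 to 34 counts) and Thrsp with the vector (5 to 8 counts).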
